A study of Mus musculus with 16 samples.

Results

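The reactive astrocyte genes described here were a set of 10 transcripts that astrocytes of the mouse raise after injury or inflammation. They were chosen by name, with earlier results of these data known. They were found by matching the Ensembl identifiers of the count files to the symbols Gfap, Vim, Serpina3n, Lcn2, Timp1, Osmr, S1pr3, Cd44, Aspg and Steap4. Each of the 10 was found among 49671 listed genes, and each passed the filter on low counts that left 18875 genes for testing. Whole brains of 16 C57BL/6 offspring, all described as male, were taken at postnatal day 32 and sequenced as 1 RNA library each, in 4 groups of 4. The LPS-LPS mice came from dams injected intraperitoneally with lipopolysaccharide (LPS) on gestation day 16 and were injected with LPS themselves at postnatal day 30. The LPS-saline mice had LPS before birth and saline at postnatal day 30, the saline-LPS mice had saline before birth and LPS at postnatal day 30, and the saline-saline mice had saline at both times. The dam's injection is taken to be the first word of each name, which is a reading of the labels. If the order were the reverse, prenatal and pubertal would change places in what follows. Litters are not given, so some mice of a group, or of both groups with 1 kind of dam, may be littermates, and the p-values below reflect only how far these mice differ.

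LPS, from the outer membrane of Gram-negative bacteria, sets off innate immune signalling through Toll-like receptor 4. Astrocytes respond to cytokines of that response by changing their transcription, a state called reactive, in which intermediate filaments, secreted protease inhibitors, acute-phase proteins and cytokine receptors are raised together. Part of this response runs from ligands of the interleukin-6 family through receptors that contain gp130 (Il6st) to the kinase JAK and the transcription factor STAT3. None of the 10 genes is made by astrocytes alone. Vim is also a filament of endothelium and fibroblasts, Lcn2 is stored by neutrophils, and Cd44 and Timp1 are made by many cell types. In whole-brain RNA, more cells of a type and more RNA per cell cannot be told apart.

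Libraries held between 25729919 and 38571036 counts on genes. Levels are given as library-scaled CPM, a gene's counts relative to the total of all tested genes in its library. Whole brain was the labelled tissue, yet Gabra6, which marks granule cells of the cerebellum, was below 1 CPM in 8 libraries spread over all 4 groups, and between 2.51 and 70.4 CPM in the rest. The split was uneven. Under 1 CPM there was 1 LPS-LPS library, replicate 2, and at 1 CPM or more there was 1 saline-saline library, replicate 4. The library labelled LPS-LPS replicate 3 held Xist, which is transcribed from an inactive X, at 503 CPM and had 0 CPM of Ddx3y, a gene of the Y chromosome, against its label as male. The pituitary hormone Gh stood at 503 CPM in LPS-LPS replicate 1 and at 44.1 CPM in saline-LPS replicate 1, against 2.58 CPM or less in the others. Values without LPS-LPS replicate 1 or 3, or without both, are given below for the 4 genes called after prenatal LPS and for a few others. Calls printed without such values may also rest on these libraries.

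Divided by exonic length so that genes could be compared, levels fell in a clear order over the 16 libraries. Gfap was the most abundant at 76.6 ± 8.56 CPM per kilobase (SD, n = 16). Vim and Serpina3n followed at 8.03 ± 0.804 and 7.14 ± 1.21 CPM per kilobase, with ranges that overlapped. S1pr3, Timp1 and Aspg formed the next tier at 1.93 ± 0.284, 1.56 ± 0.347 and 1.40 ± 0.207 CPM per kilobase, and these neighbours overlapped too. Cd44 at 0.589 ± 0.0562 lay clear of its neighbours, above Osmr at 0.278 ± 0.0502, Lcn2 at 0.203 ± 0.108 and Steap4 at 0.112 ± 0.0391 CPM per kilobase, whose ranges overlapped from 1 to the next. At the low end the depth was small: Lcn2 had 4 to 46 counts and Steap4 had 6 to 19 counts in a library, against 7596 to 12103 for Gfap. Between mice of a group the coefficient of variation was 7.68% for Gfap, where counting alone gives 0.984%, and 39.1% for Lcn2, where counting alone gives 24.2%.

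**Figure D1:**
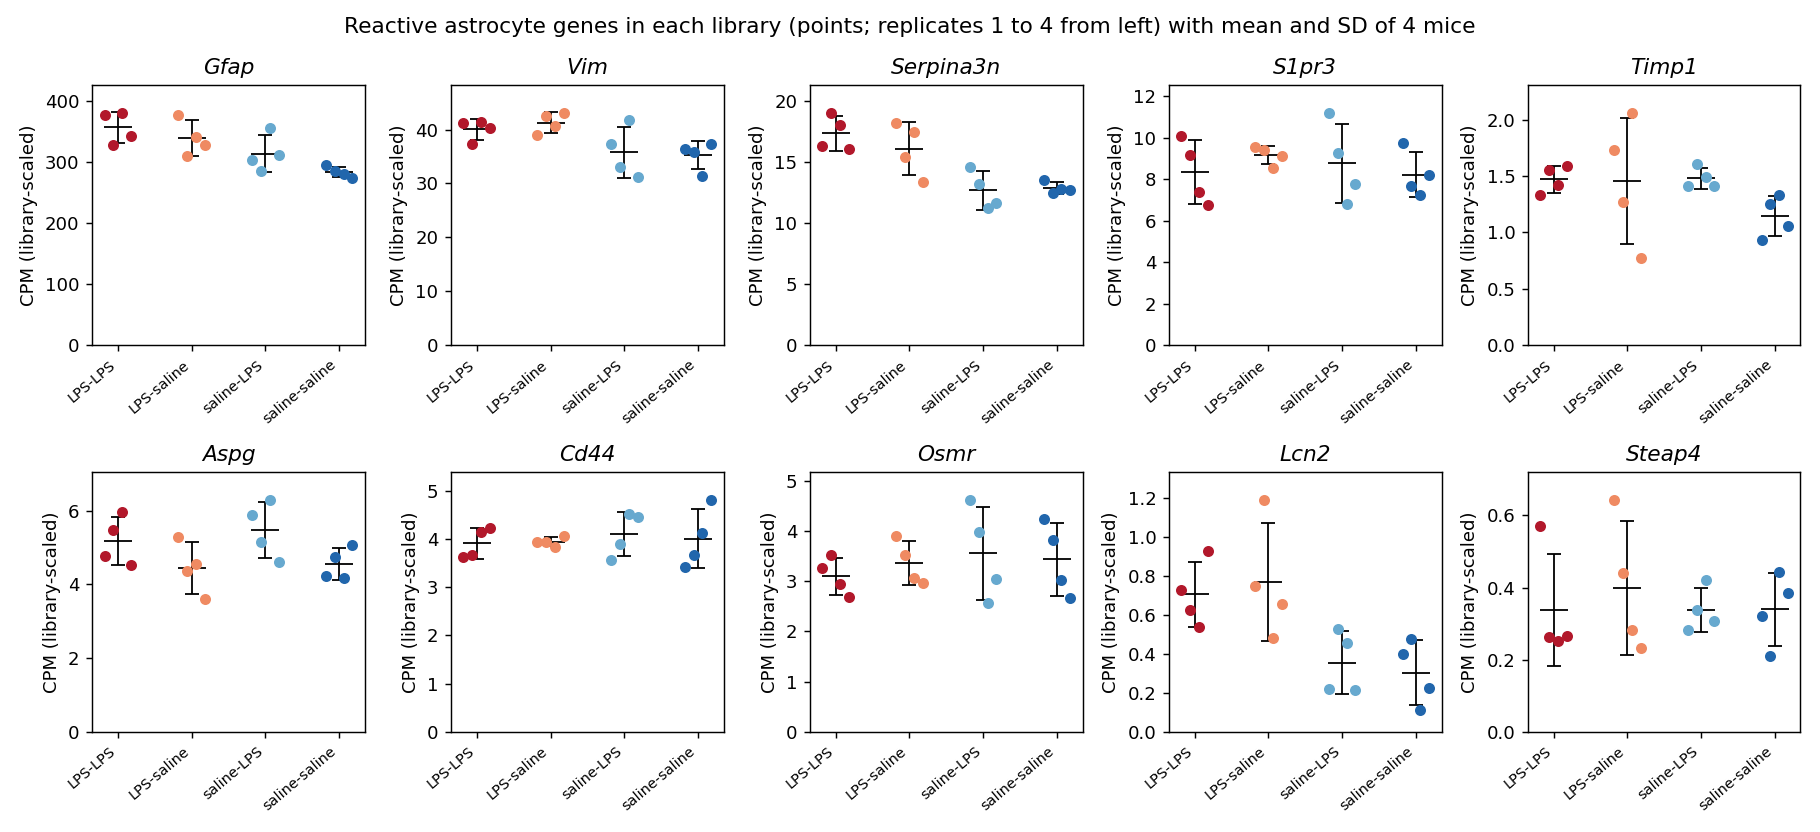
Library-scaled CPM (y axis, from 0) of the 10 genes in each of the 16 libraries, with the groups LPS-LPS, LPS-saline, saline-LPS and saline-saline along the x axis; points are mice, horizontal bars are means and error bars are the SD of 4 mice. Gfap, Vim, Serpina3n and Lcn2 sit higher in the LPS-LPS and LPS-saline groups, whereas Osmr, S1pr3, Cd44 and Steap4 overlap across all 4 groups.

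The upstream sequences of the 4 genes that passed the test after prenatal LPS, and of Steap4, show what stands before their starts. Each is the window of 250 bases before the RefSeq transcription start (RefSeq, GRCm38.p6), written 5′ to 3′ on the gene's own strand, and all 10 genes were matched in that table. Capitals mark matches to TTCNNNGAA, the spacing that STAT3 binds, or to TATAAA, the TATA box, searched on both strands. The windows lie at chr11:102897201-102897450 for Gfap, chr2:13574061-13574310 for Vim, chr12:104406458-104406707 for Serpina3n, chr2:32387740-32387989 for Lcn2 and chr5:7960222-7960471 for Steap4, with Gfap and Lcn2 on the minus strand and the others on the plus strand.
Gfap: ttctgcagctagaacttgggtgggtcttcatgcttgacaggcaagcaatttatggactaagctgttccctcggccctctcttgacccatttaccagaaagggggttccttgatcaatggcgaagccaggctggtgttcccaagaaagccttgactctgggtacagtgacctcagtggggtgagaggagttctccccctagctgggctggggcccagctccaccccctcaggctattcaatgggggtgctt
Vim: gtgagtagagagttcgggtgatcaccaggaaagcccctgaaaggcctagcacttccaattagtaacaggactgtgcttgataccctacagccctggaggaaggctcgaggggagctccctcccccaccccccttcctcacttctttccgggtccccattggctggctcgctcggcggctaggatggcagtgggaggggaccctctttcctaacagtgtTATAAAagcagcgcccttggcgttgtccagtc
Serpina3n: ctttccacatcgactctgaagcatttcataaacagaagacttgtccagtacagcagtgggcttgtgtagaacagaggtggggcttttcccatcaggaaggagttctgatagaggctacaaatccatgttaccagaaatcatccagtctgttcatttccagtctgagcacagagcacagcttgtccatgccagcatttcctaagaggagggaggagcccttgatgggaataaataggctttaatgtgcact
Lcn2: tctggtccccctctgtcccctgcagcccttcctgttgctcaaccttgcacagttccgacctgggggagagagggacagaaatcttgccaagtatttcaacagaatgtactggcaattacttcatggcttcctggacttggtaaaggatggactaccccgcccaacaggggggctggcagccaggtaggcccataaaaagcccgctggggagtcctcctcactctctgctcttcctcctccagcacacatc
Steap4: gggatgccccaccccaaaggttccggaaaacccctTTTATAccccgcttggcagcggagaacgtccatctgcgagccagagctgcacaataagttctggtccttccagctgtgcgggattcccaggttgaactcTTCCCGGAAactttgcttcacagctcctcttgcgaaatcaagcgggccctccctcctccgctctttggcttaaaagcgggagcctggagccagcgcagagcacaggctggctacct

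TTCNNNGAA was found in 1 of the 10 windows, that of Steap4, where TTCCCGGAA begins 116 bases before the start. The same letters stand in 7.02% of 32851 windows of all genes in the table. The AP-1 sequence TGANTCA was found in 0 of the 10 windows, against 6.75% of all windows. TATAAA stood 32 bases before the start of Vim, and its reverse complement TTTATA 215 bases before the start of Steap4, against a match in 12.4% of all windows. This last motif was added after the sequences were seen. The Serpina3n window, like that of S1pr3, ends before the first base that GENCODE M21 gives to the gene, so the 2 annotations place these starts differently. The windows of Gfap, Vim and Lcn2 lie inside the span that GENCODE M21 gives to the gene, and that of Steap4 reaches into it.

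The dam's injection was tested over all 16 libraries by averaging the comparison over the pubertal injection, 8 mice after prenatal LPS against 8 after prenatal saline. Both filament genes, Gfap and Vim, and the secreted proteins Serpina3n and Lcn2 rose. Fold differences were 1.17 for Gfap, 1.14 for Vim, 1.31 for Serpina3n and 2.26 for Lcn2. The receptors Osmr, S1pr3 and Cd44, the enzymes Aspg and Steap4, and Timp1 did not pass. By edgeR's quasi-likelihood test, with p-values adjusted over all tested genes after Benjamini and Hochberg, 4 of 10 were higher and 0 lower. The threshold was an adjusted p under 0.05, at which 4.9% of all tested genes were higher and 2.92% lower. Because the members were chosen with earlier results of these data known, the excess over these shares is no independent evidence. In either direction 1476 of all tested genes were called, and 214 with LPS-LPS replicates 1 and 3 left out together. The median log2 fold change of the 10 was 0.15, with 7 positive and 3 negative, against -0.0054 over all tested genes. None of the 10 had all 8 libraries after prenatal LPS above all 8 after prenatal saline, a separation that 0.747% of tested genes showed.

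Gfap (ENSMUSG00000020932, chr11:102887336-102900912, minus strand, GRCm38) encodes the main intermediate filament of astrocytes. It stood at 376, 328, 380 and 342 CPM in LPS-LPS libraries, 377, 309, 341 and 328 CPM in LPS-saline libraries, 302, 285, 355 and 311 CPM in saline-LPS libraries, and 295, 284, 280 and 274 CPM in saline-saline libraries. All 8 libraries after prenatal LPS lay above the highest saline-saline library, and saline-LPS replicate 3 was the library after prenatal saline that reached into their range most. The mean was 348 ± 27.0 CPM after prenatal LPS and 298 ± 26 CPM after prenatal saline (SD, n = 8 each; log2 fold change 0.22 ± 0.05 SE, edgeR adjusted p = 0.0116). The call held in each of 16 fits that left out a single library, with adjusted p up to 0.0331. It was lost with LPS-LPS replicates 1 and 3 left out together (log2 0.18, adjusted p = 0.12).

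Vim (ENSMUSG00000026728, chr2:13573927-13582826, plus strand) encodes vimentin, which copolymerises with the product of Gfap. Its levels were 41.2, 37.3, 41.4 and 40.2 CPM in LPS-LPS mice, 39.0, 42.5, 40.6 and 43.1 CPM in LPS-saline mice, 37.4, 33.0, 41.7 and 31.1 CPM in saline-LPS mice, and 36.3, 35.9, 31.4 and 37.3 CPM in saline-saline. The 8 libraries after prenatal LPS were close together, and among the rest saline-LPS replicate 3 alone exceeded 40 CPM. Vim averaged 40.6 ± 1.87 CPM after prenatal LPS and 35.5 ± 3.54 CPM after prenatal saline (SD, n = 8 each; log2 0.20 ± 0.06 SE, edgeR adjusted p = 0.0372). This was the least stable of the 4 calls, kept in 5 of the 16 fits without a single library, with adjusted p from 0.00948 to 0.0813. With the Xist-bearing library, LPS-LPS replicate 3, left out, the adjusted p was 0.0771.

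Serpina3n (ENSMUSG00000021091, chr12:104406729-104414329, plus strand) encodes a secreted inhibitor of serine proteases of the antichymotrypsin family. It was measured at 16.3, 19.0, 18 and 16.0 CPM in LPS-LPS mice, 18.2, 15.4, 17.4 and 13.3 CPM in LPS-saline mice, 14.6, 13.2, 11.2 and 11.6 CPM in saline-LPS mice, and 13.5, 12.4, 12.8 and 12.7 CPM in saline-saline. Only LPS-saline replicate 4 among the libraries after prenatal LPS fell within the range of those after prenatal saline. The means were 16.7 ± 1.83 CPM after prenatal LPS and 12.8 ± 1.06 CPM after prenatal saline (SD, n = 8 each; log2 0.39 ± 0.07 SE, edgeR adjusted p = 0.00326). The call held in all 16 fits without a single library, with adjusted p up to 0.011, and with LPS-LPS replicates 1 and 3 both left out (adjusted p = 0.0335). Of its 50-base stretches, 6.9% also occur in 7 other genes, paralogs of the same locus among them, so part of its reads may have gone uncounted or to a neighbour.

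Lcn2 (ENSMUSG00000026822, chr2:32384633-32388252, minus strand) encodes lipocalin-2, a secreted acute-phase protein that binds bacterial siderophores. Its levels were 0.729, 0.626, 0.538 and 0.927 CPM in LPS-LPS mice, 0.746, 1.19, 0.479 and 0.657 CPM in LPS-saline mice, 0.219, 0.526, 0.455 and 0.215 CPM in saline-LPS mice, and 0.401, 0.478, 0.111 and 0.225 CPM in saline-saline. After prenatal LPS only LPS-saline replicate 3 fell below the highest library after prenatal saline. The highest library of all, LPS-saline replicate 2 with 46 counts, stood 10.7-fold above the lowest, saline-saline replicate 3 with 4 counts. In all, 189 counts were collected after prenatal LPS and 84 after prenatal saline. The means were 0.737 ± 0.229 CPM after prenatal LPS and 0.329 ± 0.154 CPM after prenatal saline (SD, n = 8 each; log2 1.18 ± 0.28 SE, edgeR adjusted p = 0.0145). The call held in all 16 fits without a single library (adjusted p up to 0.0377) and was lost with LPS-LPS replicates 1 and 3 left out together (log2 1.25, adjusted p = 0.0632). DESeq2 gave this gene no adjusted p.

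Because neutrophils also store Lcn2, their markers were read beside it. Of 8 neutrophil and monocyte markers 5 were tested and 0 were called, and their summed level ran from 2.76 to 5.66 CPM in LPS-LPS mice, 3.02 to 5.70 CPM in LPS-saline mice, 1.28 to 4.55 CPM in saline-LPS and 1.11 to 4.19 CPM in saline-saline, with a median log2 fold change of 0.50 after prenatal LPS. These sums lay higher after prenatal LPS and overlapped between all groups. Their part in the Lcn2 result was not tested.

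Timp1 (ENSMUSG00000001131, chrX:20870166-20874735, plus strand), an inhibitor of matrix metalloproteinases, was the secreted member that did not pass. It averaged 1.47 ± 0.374 CPM after prenatal LPS and 1.31 ± 0.224 CPM after prenatal saline (SD, n = 8 each; log2 0.18, edgeR adjusted p = 0.55). The lowest and the highest of the 16 libraries, 0.773 and 2.06 CPM, were both LPS-saline. The gene lies inside Syn1 on the opposite strand, with 0 exonic bases shared, and the strand setting of the counting is not given in the sources used here.

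Osmr (ENSMUSG00000022146, chr15:6813577-6874969, minus strand) is the subunit that pairs with gp130 to bind oncostatin M. It stood at 3.27, 3.52, 2.94 and 2.68 CPM in LPS-LPS mice, 3.90, 3.52, 3.07 and 2.97 CPM in LPS-saline mice, 4.63, 3.98, 2.57 and 3.04 CPM in saline-LPS mice, and 4.25, 3.82, 3.02 and 2.67 CPM in saline-saline. The saline-LPS libraries spanned all the others, holding both the highest and the lowest value. S1pr3 (ENSMUSG00000067586, chr13:51408639-51422797, plus strand), a receptor for sphingosine 1-phosphate, averaged 8.74 ± 1.13 CPM after prenatal LPS and 8.49 ± 1.46 CPM after prenatal saline, with 1.01% of its exonic bases shared with a predicted gene on the other strand. Cd44 (ENSMUSG00000005087, chr2:102811141-102901665, minus strand), the hyaluronan receptor, averaged 3.93 ± 0.220 CPM after prenatal LPS and 4.06 ± 0.503 CPM after prenatal saline. The log2 fold changes of these 3 receptors after prenatal LPS were -0.11 ± 0.13, 0.04 ± 0.10 and -0.05 ± 0.09 (SE; edgeR adjusted p = 0.653, 0.853 and 0.808), each within about its own error of 0. Direction was not stable for any of them, since each changed sign under at least 1 other setting.

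Aspg (ENSMUSG00000037686, chr12:112106679-112127559, plus strand), an asparaginase, stood at 4.81 ± 0.736 CPM after prenatal LPS and 5.02 ± 0.758 CPM after prenatal saline (log2 -0.06, edgeR adjusted p = 0.784). Steap4 (ENSMUSG00000012428, chr5:7960457-7982213, plus strand), a metalloreductase of iron and copper, stood at 0.369 ± 0.162 CPM after prenatal LPS and 0.338 ± 0.0772 CPM after prenatal saline (log2 0.12, edgeR adjusted p = 0.836; SD, n = 8 each for both genes). Neither log2 value kept its sign under all settings. With 94 counts after prenatal LPS and 88 after prenatal saline in total, Steap4 had a counting error of 29.6% per library, and a change of the size seen for Gfap was not detectable at this depth.

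**Figure D2:**
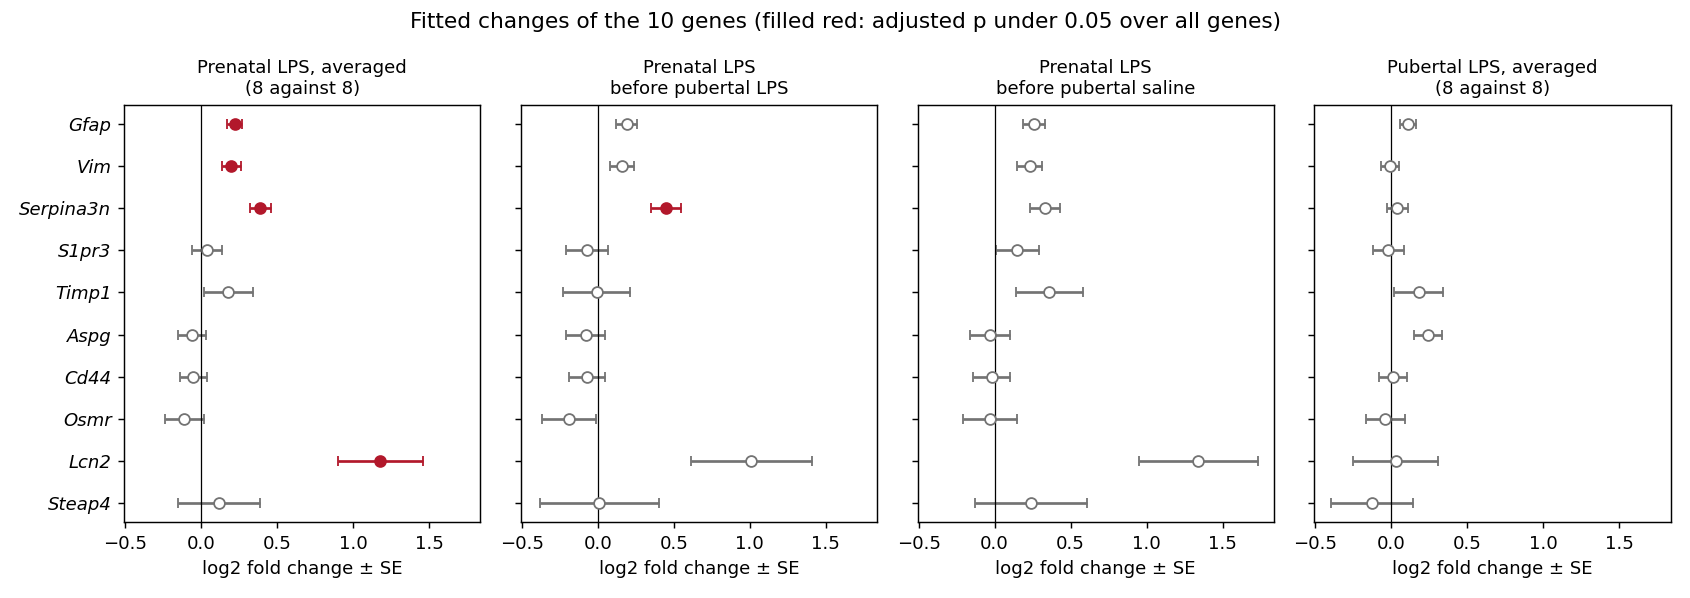
Log2 fold changes with standard errors (x axis) of the 10 genes (y axis) in 4 comparisons, prenatal LPS averaged over the pubertal injection, prenatal LPS before pubertal LPS, prenatal LPS before pubertal saline, and pubertal LPS averaged over the prenatal injection; filled red points had an adjusted p under 0.05 over all tested genes. Gfap, Vim, Serpina3n and Lcn2 lie right of 0 in each of the first 3 panels, and the last panel has no filled point.

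The prenatal comparison was also made within each pubertal injection, on different libraries but with a common estimate of the spread. Before pubertal LPS, Serpina3n rose, with 17.3 ± 1.42 CPM in LPS-LPS and 12.7 ± 1.56 CPM in saline-LPS (SD, n = 4 each; log2 0.45 ± 0.10 SE, edgeR adjusted p = 0.0396). It was the 1 gene of 10 called higher, where 0.562% of tested genes were. Gfap, Vim and Lcn2 had log2 values of 0.19, 0.16 and 1.01 without passing (edgeR adjusted p = 0.238, 0.37 and 0.25). In Serpina3n and Lcn2 all 4 LPS-LPS libraries lay above all 4 saline-LPS libraries, 2 of 10 genes, where 4.96% of tested genes separated in this way. The median log2 fold change of the 10 was 0.0019 and that of all tested genes -0.0071. The Serpina3n call was kept in 5 of 16 fits without a single library, with adjusted p from 0.0199 to 0.156, the highest without LPS-LPS replicate 3. It was also lost in a fit of these 2 groups alone (adjusted p = 0.139) and with a correction for GC content and length (adjusted p = 0.0588), and kept with the replicate number as a block (adjusted p = 0.0116).

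Before pubertal saline, 0 of the 10 genes passed, where 0.148% of tested genes were called higher. Gfap averaged 339 ± 29.0 CPM in LPS-saline libraries and 283 ± 8.65 CPM in saline-saline libraries (SD, n = 4 each; log2 0.26 ± 0.07 SE, edgeR adjusted p = 0.101). Vim, Serpina3n and Lcn2 had log2 values of 0.23, 0.33 and 1.34 (edgeR adjusted p = 0.202, 0.142 and 0.122). All 4 LPS-saline libraries lay above all 4 saline-saline libraries for Gfap, Vim and Lcn2, 3 of 10 genes, where 5.17% of tested genes separated. With the replicate number as a block Gfap was called (adjusted p = 0.0242), among 409 called genes in place of 34, and lost again when the block was joined to the GC content and length correction (adjusted p = 0.0855). It was also called in a fit of these 2 groups alone, with the cerebellar covariate and by DESeq2 (adjusted p = 0.0469, 0.0394 and 0.0284). It was not called with the correction alone (adjusted p = 0.246), nor in any of 16 fits without a single library (adjusted p from 0.0525 to 0.364). The median log2 fold change of the 10 was 0.23, and that of all tested genes -0.0027.

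Gfap and Serpina3n also passed when mice with both injections were set against mice with neither. Gfap was at 357 ± 25.6 CPM in LPS-LPS and 283 ± 8.65 CPM in saline-saline, with no overlap (SD, n = 4 each; log2 0.33 ± 0.07 SE, edgeR adjusted p = 0.0103). Serpina3n was at 17.3 ± 1.42 CPM in LPS-LPS and 12.8 ± 0.436 CPM in saline-saline (log2 0.43 ± 0.10 SE, edgeR adjusted p = 0.0148). Lcn2 had a log2 value of 1.20 ± 0.40 and Vim of 0.18 ± 0.08 without passing (edgeR adjusted p = 0.0726 and 0.173). In all 2 of 10 were higher and 0 lower, where 4.27% of tested genes were higher and 2.29% lower, and the median of the 10 was 0.19. Without LPS-LPS replicate 3 both calls were lost, with adjusted p of 0.0521 for Gfap and 0.0603 for Serpina3n. This comparison shares its libraries with those above and is no separate evidence.

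The offspring's own injection, given 2 days before collection, was followed by no call. Of the 10 genes 0 passed edgeR's test after prenatal LPS, after prenatal saline or averaged over both, and 0% of all tested genes did. At an unadjusted p under 0.05 there were 756, 535 and 947 of 18875 tested genes in these 3 comparisons. Without any effect a share of about 0.05 falls under that threshold, and none of these counts was clearly above it. DESeq2 called 9, 0 and 0 of all genes. Without saline-LPS replicate 1 edgeR called 1, 3 and 10 genes. Averaged over the prenatal injection, Aspg had the smallest unadjusted p of the 10, with 5.18 ± 0.650 CPM in LPS-LPS mice, 4.44 ± 0.697 CPM in LPS-saline mice, 5.48 ± 0.756 CPM in saline-LPS and 4.55 ± 0.438 CPM in saline-saline (SD, n = 4 each; log2 0.24 ± 0.09 SE, edgeR adjusted p = 0.944). Gfap came next with log2 0.11 ± 0.05 SE (edgeR adjusted p = 0.951), and before adjustment these 2 were under 0.05 in the averaged comparison. Timp1 averaged 1.48 ± 0.0974 CPM in saline-LPS and 1.15 ± 0.180 CPM in saline-saline (SD, n = 4 each) and did not pass (edgeR adjusted p = 1).

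Whether the effect of the pubertal injection differed with the prenatal one was tested as an interaction. No gene of the 10 was called, and 0% of all tested genes were, with 1 call by DESeq2. At an unadjusted p under 0.05 there were 402 of 18875 genes, less than the share of 0.05 that falls there without any effect. The interaction estimates were -0.07 ± 0.10 for Gfap, -0.07 ± 0.11 for Vim, 0.13 ± 0.14 for Serpina3n and -0.33 ± 0.56 for Lcn2 (log2, SE; edgeR adjusted p = 1 for each). For Lcn2 this error is wide against its prenatal log2 fold change of 1.18. A difference would have to be well over that error to pass, so a large one could have been missed.

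Other genes of the astrocyte response were read from lists around the members. Beside the counts of these lists stand the shares of all tested genes after prenatal LPS, 4.9% higher and 2.92% lower. The lists too were chosen with earlier results of these data known, so their counts are no independent evidence either. Of 3 further pan-reactive genes, 0 of 3 tested passed after prenatal LPS. The chemokine Cxcl10 stood at 0.359 ± 0.287 CPM after prenatal LPS and 0.164 ± 0.118 CPM after prenatal saline (SD, n = 8 each; log2 1.25, edgeR adjusted p = 0.102), and Cp, the ferroxidase ceruloplasmin, had log2 -0.06 (adjusted p = 0.647). Of 12 genes described in astrocytes after inflammatory stimuli (the A1 list), 11 were tested and 6 rose, with a median log2 fold change of 0.35. The weakest of the 6 had an edgeR adjusted p that rounds to 0.05. H2-D1, a class I heavy chain, stood at 75.6 ± 5.44 CPM after prenatal LPS and 46.1 ± 5.16 CPM after prenatal saline (SD, n = 8 each; log2 0.71, edgeR adjusted p = 1.03e-06). H2-T23, a non-classical class I chain, and Psmb8, an immunoproteasome subunit, rose by 0.42 and 0.65 (edgeR adjusted p = 0.0028 and 0.0207). Without LPS-LPS replicate 3 the adjusted p of Psmb8 was 0.0568. Several of these 6 are genes of antigen presentation and interferon responses that many cell types share. Of 12 genes described after ischaemia (the A2 list), 11 were tested and 1 rose, Sphk1, a kinase that makes sphingosine 1-phosphate (log2 0.27, edgeR adjusted p = 0.0274; 0.151 after correcting for GC content and length), and the list's median was -0.02.

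Genes of the pathway that runs through gp130 and of the members' own ligands and receptors were read next, where 4.9% of all tested genes were higher and 2.92% lower. Of 17 genes of gp130, JAK and STAT3 signalling, which hold ligands, receptors, kinases and Stat3 itself, 14 were tested, 0 rose and 1 fell. That gene was Lifr, the receptor chain for leukaemia inhibitory factor, at 37.7 ± 1.97 CPM after prenatal LPS and 43.9 ± 3.23 CPM after prenatal saline (SD, n = 8 each; log2 -0.22, edgeR adjusted p = 0.0126; 0.105 after correcting for GC content and length). The list's median was -0.04. Among 17 partners of the members (ligands, receptors, targets and relatives), 16 were tested and 3 rose, with a median of -0.14. They were Mmp14, a membrane-bound metalloproteinase (24.4 ± 2.03 CPM after prenatal LPS and 19.6 ± 1.83 CPM after prenatal saline; log2 0.32, edgeR adjusted p = 0.00346), Sphk1 again, and Slc22a17, a receptor for lipocalin-2 (log2 0.18, edgeR adjusted p = 0.0449; 0.149 with the correction).

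Homeostatic astrocyte genes, which serve transport and coupling in resting astrocytes, fell in 3 of 18 tested, where 2.92% of all tested genes were lower. None was higher, and the median log2 fold change was -0.06. Slc1a2, the main glutamate transporter, stood at 1970 ± 90.2 CPM after prenatal LPS and 2290 ± 219 CPM after prenatal saline (SD, n = 8 each; log2 -0.22, edgeR adjusted p = 0.0156; 0.173 after correcting for GC content and length). Gjb6, a connexin, and Atp1b2, a sodium pump subunit, fell by 0.19 and 0.15 (edgeR adjusted p = 0.0365 and 0.0442), and both calls were lost when LPS-LPS replicate 1 or 3, among other libraries, was left out. Of 4 other intermediate filament genes 0 passed, with a median of -0.12, as Synm (synemin) had log2 -0.14 and Nes (nestin) -0.25 (edgeR adjusted p = 0.0734 and 0.494). Synm was called with the replicate block (adjusted p = 0.024), in the direction opposite to Gfap and Vim. In mice with both injections against mice with neither, Synm was called lower (log2 -0.23, edgeR adjusted p = 0.0475), where 2.29% of tested genes were lower.

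**Figure D3:**
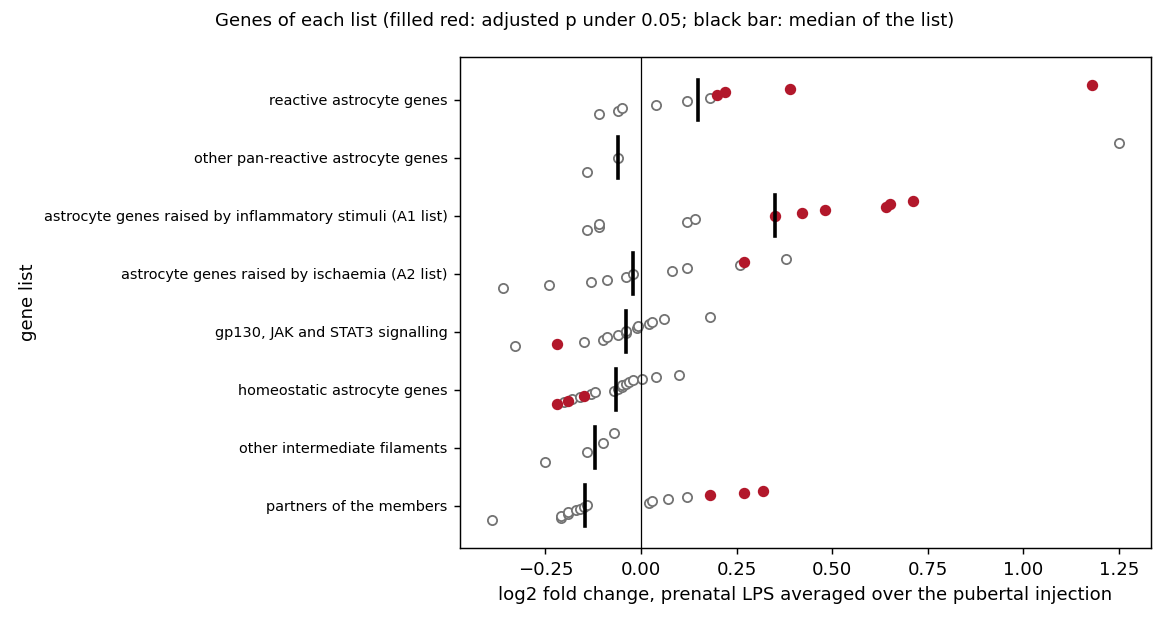
Log2 fold changes after prenatal LPS averaged over the pubertal injection (x axis) for each tested gene of the reactive astrocyte genes and of 7 surrounding lists (y axis); filled red points had an adjusted p under 0.05 over all tested genes and black bars are list medians. The reactive astrocyte genes have 4 filled points and a median of 0.15, the A1 list 6 and 0.35, and the homeostatic astrocyte genes 3, all left of 0, with a median of -0.06.

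Markers of the cell types that could carry these transcripts were read in the same fit, where 4.9% of all tested genes were higher and 2.92% lower. Of 8 general astrocyte markers 0 rose and 1 (Slc1a2) fell after prenatal LPS, and their summed level ran from 3690 to 4030 CPM in LPS-LPS mice, 3650 to 4020 CPM in LPS-saline mice, 3970 to 4720 CPM in saline-LPS and 3780 to 4530 CPM in saline-saline. Beside Vim stands endothelium, with 0 of 8 called and sums of 210 to 280 CPM in LPS-LPS mice, 229 to 324 CPM in LPS-saline mice, 202 to 391 CPM in saline-LPS and 261 to 371 CPM in saline-saline. Meninges and fibroblasts had 1 of 8 higher (Dcn, log2 0.23, edgeR adjusted p = 0.0405) and sums of 268 to 313 CPM in LPS-LPS mice, 248 to 308 CPM in LPS-saline mice, 222 to 312 CPM in saline-LPS and 227 to 279 CPM in saline-saline. Mural cells, choroid plexus and ependyma had 0 of 8 called each. Of 8 microglia markers 1 rose (Aif1, log2 0.42, edgeR adjusted p = 0.0128), with a median of 0.04. No marker of the astrocyte, endothelial, meningeal or microglial lists was at 0 in any group. The part of these cell types in the results was not tested.

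The split of the libraries by Gabra6 was set against the members after the data had been seen. Osmr differed, with 3.83 ± 0.489 CPM in the 8 libraries under 1 CPM of Gabra6 and 2.90 ± 0.241 CPM in the other 8 (SD; log2 0.41 ± 0.10 SE with group in the model, edgeR adjusted p = 0.0136). It was the 1 gene of 10 that did, where 6.95% of tested genes were higher and 6.87% lower in libraries under 1 CPM. The libraries under 1 CPM were replicates 1 and 2 of each group, except that LPS-LPS replicate 1 was not among them and saline-saline replicate 3 was. The replicate number was not in this model, so Gabra6 and replicate number cannot be told apart here. Within the libraries under 1 CPM the prenatal log2 fold changes were 0.21 for Gfap, 0.16 for Vim, 0.41 for Serpina3n and 1.17 for Lcn2. Within the other 8 they were 0.21 for Gfap, 0.17 for Vim, 0.42 for Serpina3n and 1.22 for Lcn2. Each of these fits holds a group of 1 library, LPS-LPS in the first and saline-saline in the second, so only sizes are given. These sizes were close to those of all 16 libraries.

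**Figure D4:**
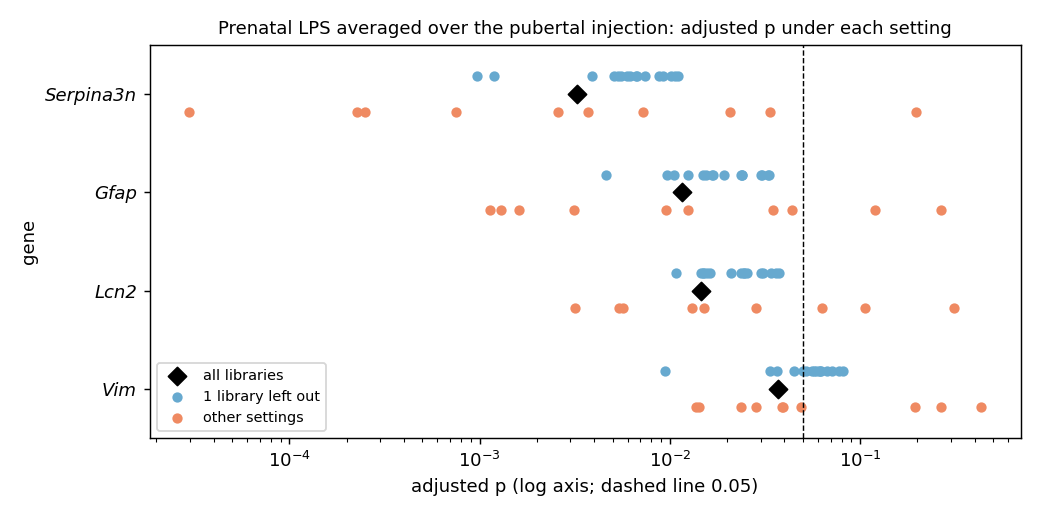
Adjusted p (x axis, log scale) of Serpina3n, Gfap, Lcn2 and Vim (y axis) after prenatal LPS averaged over the pubertal injection, with all libraries (black diamonds), with 1 library left out (blue) and under other settings (orange); the dashed line marks 0.05. Blue points of Serpina3n, Gfap and Lcn2 all lie left of the line, whereas 5 of 16 do for Vim.

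Whether the 10 genes varied together between mice of the same group was measured as correlations of log2(CPM + 0.5) after removing group means. Of 45 pairs 25 were positive and 20 negative, with a median r of 0.071, so the genes did not move as 1 block. The 4 genes called after prenatal LPS were not correlated with each other past the threshold. Osmr and Cd44 were opposed (r = -0.89, permutation p = 0.00026, adjusted p = 0.0117 over the 45 pairs; Spearman -0.888, permutation p = 0.00027, adjusted p = 0.0121). Cd44 was measured at 3.62, 3.66, 4.14 and 4.24 CPM in LPS-LPS mice, 3.93, 3.94, 3.84 and 4.06 CPM in LPS-saline mice, 3.56, 3.90, 4.51 and 4.45 CPM in saline-LPS mice, and 3.42, 3.67, 4.13 and 4.82 CPM in saline-saline, so that within LPS-LPS, saline-LPS and saline-saline the 2 mice lowest in Osmr were the 2 highest in Cd44. The value was -0.872 without the 2 libraries farthest from the median of Osmr. Without saline-saline replicate 1 it was -0.868 with an adjusted p of 0.0832, and in the other 15 fits without a single library the pair stayed under 0.05. Replicates 1 and 2 were above replicates 3 and 4 for Osmr in every group, whereas the permutations take the mice of a group as interchangeable, so these p-values may be too small. With the means of the replicate numbers removed as well, a setting added after the data had been seen and given no test, r was -0.665. Within the libraries under 1 CPM of Gabra6 r was -0.725, and -0.443 without the 2 libraries farthest from the median. Within the other 8 it was -0.793, and -0.644 without such 2 (n = 8 each, group means not removed). Osmr and S1pr3 had r = 0.798 (permutation p = 0.00269, adjusted p = 0.0605; Spearman 0.794, permutation p = 0.00336, adjusted p = 0.0625). It was 0.792 within libraries under 1 CPM of Gabra6, and 0.189 there without the 2 libraries farthest from the median. Within the others it was 0.777, and 0.865 without such 2. With the means of the replicate numbers removed it was 0.339.

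**Figure D5:**
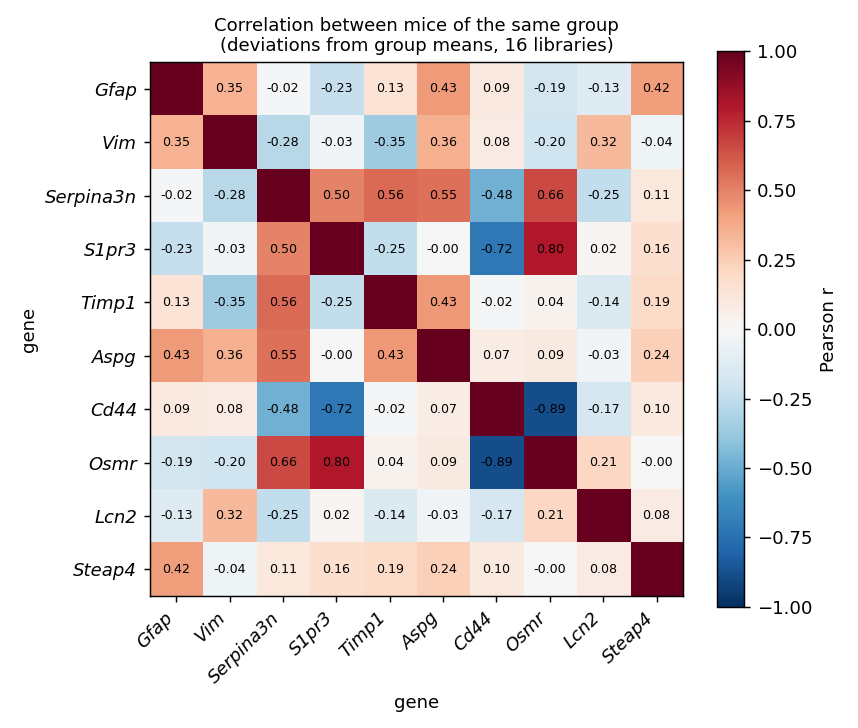
Pearson correlations between the 10 genes (both axes) over 16 libraries after removing group means, from -1 (blue) to 1 (red). Osmr and Cd44 stand out at -0.89 and Osmr and S1pr3 at 0.80, while the pairs among Gfap, Vim, Serpina3n and Lcn2 lie between -0.28 and 0.35.

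Genes most like each member were sought among 15222 tested genes with a mean of at least 1 CPM, in deviations from group means over 16 libraries. These are descriptions, the highest of very many correlations, and depth, dissected region and RNA composition are common to all genes of a library. For Gfap they were Fcf1, Csrp1 and Tspan12 (r = 0.886, 0.884 and 0.881), and for Vim Fzd1, Arhgef37 and Rdh5 (0.907, 0.857 and 0.851), where a gene that is not named under the rule ranked between them. For Serpina3n they were Pld4, Zbtb49 and Prelp (0.904, 0.856 and 0.847), and for Timp1 Cbr2, Wdr25 and Atic (0.837, 0.806 and 0.805). Osmr was most like Adcyap1r1, Ly6c1 and Ly6a (0.946, 0.938 and 0.936), S1pr3 most like Syt13, Ints3 and Synj2 (0.924, 0.922 and 0.904), Cd44 most like Tfb1m, Rbm27 and Cep57 (0.918, 0.915 and 0.894), and Aspg most like Cd180, H2-M3 and Fmo5 (0.835, 0.833 and 0.817). No gene appears in more than 1 of these lists. Lcn2 and Steap4 were below 1 CPM and were left out.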

How the data were processed

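The authors deposited 1 table of raw read counts per library. STAR 2.5.2b, HTSeq 0.11.2 and the build GRCm38 are named in the submitters' processing notes. Strand setting and annotation release: not given in the sources used here. Special entries stayed out of library sizes and tests: 8.37 to 11.0% of counts had no gene, 5.11 to 5.48% were ambiguous and 3.18 to 3.90% were not unique. Symbols and coordinates came from GENCODE M21, which matched 49412 identifiers and left 259. Reads carried no molecular identifiers, so counting errors cover counting alone.

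One edgeR 4.0.16 quasi-likelihood model in R 4.3.3 (filterByExpr, TMM, robust) held the 4 groups and 16 libraries. Tests were two-sided, adjusted over 18875 genes by Benjamini-Hochberg, with a threshold of 0.05, and all 8 comparisons came from this fit. CPM are counts scaled to the total of tested genes times the TMM factor. The model was tested on simulated data. Correlations used 100000 permutations within groups, and 20000 in the fits without a library. The GC and length correction used offsets per library from mgcv 1.9.3. Other settings were DESeq2 1.42.0, its size factors, no filter, only the compared groups, a cerebellar covariate, libraries split by Gabra6, a replicate block and leaving out each library. Leaving out LPS-LPS replicates 1 and 3 together was chosen after seeing the data.

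The named genes are the 10 members, up to 3 called genes of each surrounding list by p (otherwise the 2 with the smallest p), and the 3 genes most like each member, predicted genes not named. Markers were read by list. The members and lists were chosen with earlier results of these data known. Replicate numbers come from the labels. They were taken to pair libraries where all same-numbered pairs had deviations from group means correlated above 0.1. That held for prenatal LPS before pubertal saline (0.108 to 0.48), prenatal LPS before pubertal LPS (0.223 to 0.304) and pubertal LPS after prenatal LPS (0.124 to 0.237). In 10 of 16 libraries the mean correlation with libraries of other groups was highest for the library's own number. No 2 libraries of a group were duplicates, with chi-square per degree of freedom of at least 4.97.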

Additional observations from a re-analysis of the deposited data

Results flagged for a closer look

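Steap4 stood at 0.571 CPM (18 counts) in LPS-LPS replicate 1, against 0.253 to 0.265 CPM (8 counts each) in the other 3 LPS-LPS libraries. Its gap to the nearest of them was 0.963 of the group's range, above Dixon's 95% critical value for 4 samples. It was the 1 library so marked in 40 sets of 4 mice, where chance marks about 1 in 20. Without it the log2 fold change of Steap4 after prenatal LPS was -0.06.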

How the results depend on the processing

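Gfap, Vim, Serpina3n and Lcn2 kept their direction after prenatal LPS, averaged over the pubertal injection, in every setting run. The count of called members there, 4, became 1 without LPS-LPS replicates 1 and 3, where fewer libraries were tested. Without single libraries Vim was called in 5 of 16 fits, and Gfap, Serpina3n and Lcn2 in all 16. Other changes of a count by up to 1.5 times are not listed. Counts of called members within the Gabra6 splits are left out, since each split leaves a group of 1 library. Before pubertal LPS the count of 1 became 0 with only the compared groups, with the GC and length correction and without LPS-LPS replicates 1 and 3. It was 0 to 1 without single libraries. Before pubertal saline the count of 0 became 1 with only the compared groups, 1 with the replicate block, 1 by DESeq2 and 2 with the cerebellar covariate. For both injections the 2 calls became 0 without LPS-LPS replicates 1 and 3, and 0 to 2 without single libraries. Correlated pairs numbered 0 to 3 without single libraries, against 1. The cause of these changes was not tested. Where libraries were left out, a smaller number of libraries and the loss of those libraries cannot be told apart. The replicate block changed no other count of called members by over 1.5 times, and Lcn2 passed with it for both injections (adjusted p = 0.0303).

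Signs that turned in the averaged prenatal comparison belonged to genes that did not pass. Within libraries at 1 CPM of Gabra6 or more, Osmr had 0.13 and Steap4 -0.28. Under 1 CPM, Cd44 had 0.02, Aspg 0.06 and Cp 0.06, and Gfap after pubertal LPS had -0.01. With the GC and length correction Cd44 had 0.0092 and Cp 0.03, and with the block as well 0.01 and 0.03. Without single libraries S1pr3 ran from -0.0091 to 0.11, Steap4 from -0.06 to 0.20 and the Vim interaction from -0.13 to 0.01. Steap4 had -0.05 without LPS-LPS replicates 1 and 3. Numbers of all genes called are given without the Gabra6 splits, since each split leaves a group of 1 library. After prenatal LPS the number, 1476, ran from 214 without LPS-LPS replicates 1 and 3 to 2752 with the cerebellar covariate. It was 2268 by DESeq2 and 611 with the GC and length correction. For both injections it ran from 7 to 2289, against 1238. Before pubertal LPS it ran from 7 to 460 and before pubertal saline from 7 to 476, against 115 and 34. For pubertal LPS it reached 10 averaged and 3 after prenatal saline, both without saline-LPS replicate 1, against 0. After prenatal LPS it reached 9 for pubertal LPS, by DESeq2, also against 0. Depth limits Lcn2 and Steap4, with at most 46 and 19 counts in a library.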
